A study of Ovis aries with 30 samples.

Results

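Leukocyte genes were examined in whole liver of 30 F1 lambs. The genes were a list of 45 markers of macrophages, neutrophils, T cells, natural killer (NK) and other cytotoxic cells, and B lineage cells, with 4 genes shared by many leukocytes or tied to class II antigen presentation. Of these, 40 of the 45 had a row among the 31304 genes of the deposited count table: 13 macrophage, 4 pan-leukocyte and class II, 4 neutrophil, 10 T cell, 5 NK and cytotoxic, and 4 B lineage genes. CD163, S100A12, CD3G, ZAP70 and KLRD1 were not analysed here. The low-count filter kept 38 of the 40, leaving out CD68 and S100A8.

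Biosolids are processed sewage sludge that is spread on pasture as fertiliser and carries mixtures of environmental chemicals. The lambs were 8 biosolids females, 8 control females, 7 biosolids males and 7 control males, and the exposure was through the mother, before conception and during gestation. Lambs are named here by their tag numbers. Breed, dam, litter and the age at sampling are not given in the sources used here, and no batch is labelled. The tag numbers of biosolids and control lambs do not overlap. The question of the study was what maternal exposure to biosolids does to the liver transcriptome of the offspring.

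The liver holds the largest pool of resident macrophages in the body, the Kupffer cells, which sit in the sinusoids and clear particles, complement-coated material and old red cells from portal blood. T cells, NK cells and other lymphocytes patrol the same vessels, B lineage cells are sparser, and neutrophils enter mainly in inflammation. The adaptive lymphocytes are recognised by their antigen receptor subunits, cytotoxic cells by their granule proteins, and resident macrophages by scavenger receptors and the C1q chains of complement.

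Total gene counts were 18.7 to 51.9 M (mega) per lamb. Ribosomal RNA took 0.299 to 7.69% of them in 29 lambs and 87.5% in biosolids male 8778, which was left with 2.34 M other counts, against 23.1 M or more in the other lambs. Hepatocyte markers were high in every lamb, with a list mean between 10.94 and 11.77 log2 CPM. Control female 8263 stood apart: this lamb had the highest value of the 30 for 11.5% of all 17840 tested genes, and biosolids male 8778 for 10.8%. The main results that moved without 8263 are given with and without that lamb.

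The C1q chains and CD14 were the most abundant transcripts among the listed genes. Which cells of the liver made them was not tested. Levels are given as CPM (a gene's counts scaled to the size of its library) per kilobase of exon, the only scale on which genes are compared with each other. C1QB had a median of 293.6 CPM per kb, C1QC 203.6 and C1QA 133.8, and all 3 chains of C1q, the recognition unit of the classical complement pathway, were above the 97th percentile of tested genes. Their genes lie side by side on chromosome 2 (C1QB at 243898922 to 243905798, C1QC at 243913862 to 243918227 and C1QA at 243922415 to 243925458, ARS-UI_Ramb_v3.0, minus strand). CD14, the lipopolysaccharide co-receptor, had 136.8 CPM per kb. CSF1R, the receptor for the growth factor that macrophages need to survive, had 31.98, and MARCO, a scavenger receptor that binds bacteria, had 30.95. TIMD4, a phosphatidylserine receptor of resident macrophages that take up dying cells, had 7.96 and ADGRE1, the gene of the F4/80 antigen in mice, had 5.74. VSIG4, a complement receptor of Kupffer cells in mice and humans, was low per kb at 0.304, since its row covers 9718 exon bases and held a median of 2.95 CPM. TLR4, the signalling receptor for lipopolysaccharide, had 1.01 and MSR1, the class A scavenger receptor, 1.16. AIF1, a calcium-binding protein of macrophages, had 24.1 CPM per kb.

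**Figure D1:**
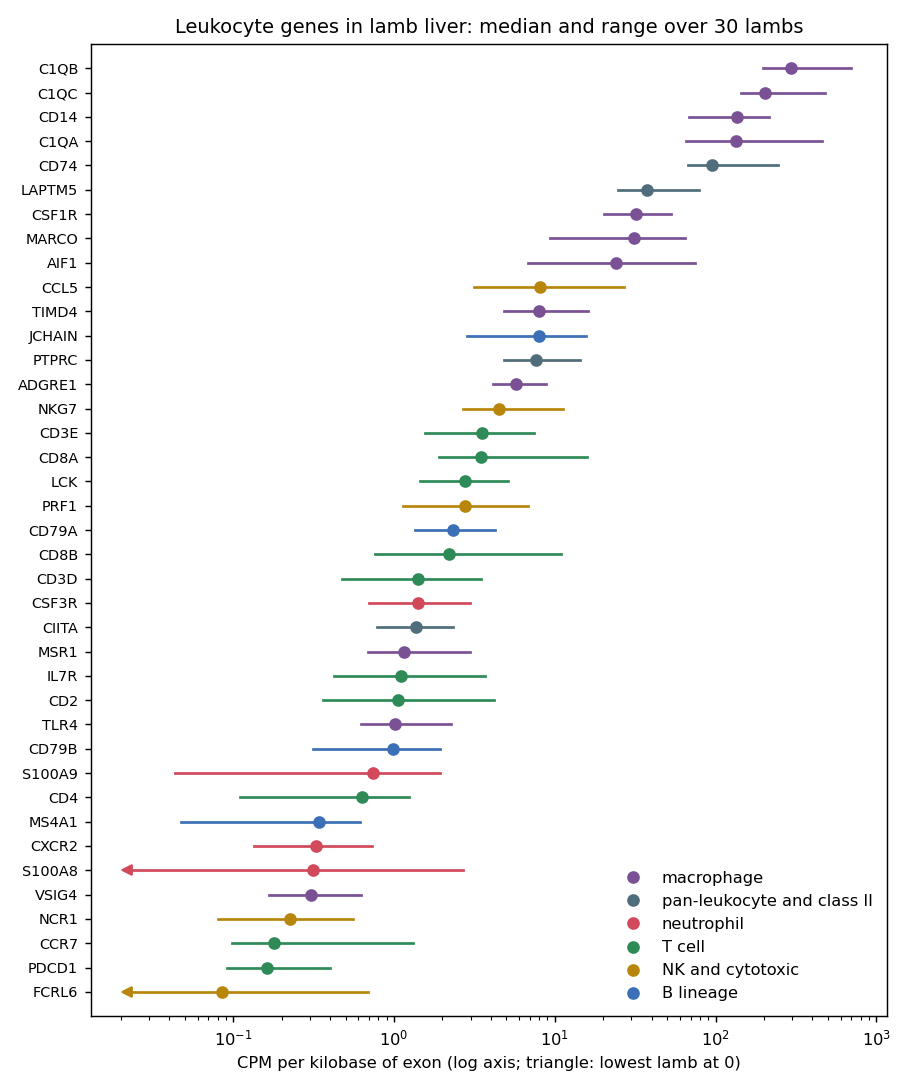
Levels of 39 leukocyte genes (CD68, at 0 in every lamb, is left out). The x axis is CPM per kilobase of exon on a log axis, points are medians and lines run from the lowest to the highest of the 30 lambs, and colours mark the cell type a gene is listed under. C1q genes and CD14 hold the top of the plot, with C1QB at 293.6, and FCRL6 the foot, at 0.0851.

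Class II and pan-leukocyte genes spread from high to low. CD74, the invariant chain that escorts class II molecules, had 95.6 CPM per kb, and LAPTM5, a lysosomal membrane protein of blood cells, had 37.4. PTPRC, which encodes the CD45 phosphatase of all leukocytes, had 7.66, and CIITA, the master regulator of class II genes, had 1.38. Among T cell genes CD3E, a signalling chain of the T cell receptor complex, had 3.53, the coreceptor chains CD8A and CD8B had 3.45 and 2.21, the kinase LCK had 2.78, and CD4 had 0.629. CD3D had 1.41, the cytokine receptor IL7R 1.11, the adhesion molecule CD2 1.06, the lymph node homing receptor CCR7 0.180 and the inhibitory receptor PDCD1 0.163. Of the cytotoxic genes, the chemokine CCL5 had 8.03, the granule membrane protein NKG7 4.49, the pore-forming PRF1 2.77, the activating NK receptor NCR1 0.225 and FCRL6, in humans a receptor of cytotoxic T and NK cells, 0.0851. JCHAIN, the joining chain of polymeric antibodies made by plasma cells, had 7.94 CPM per kb. The B cell receptor chains CD79A and CD79B had 2.31 and 0.989, and MS4A1, which encodes CD20, had 0.343.

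Of the neutrophil genes, both calprotectin genes had few counts. S100A9 and S100A8 encode the 2 chains of calprotectin, the most abundant cytosolic protein of neutrophils. S100A9 had a median of 0.739 CPM per kb and 42 counts at most, and S100A8 had 0.311 CPM per kb and 23 counts at most, with 5 lambs at 0. The cytokine receptor CSF3R had 1.40 and the chemokine receptor CXCR2 0.327. The percentiles among tested genes were 35.7 for S100A9, 23.8 for S100A8, 45.5 for CSF3R and 24.4 for CXCR2.

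CD68, a lysosomal protein of macrophages, had 0 counts in all 30 lambs. The gene lies on chromosome 11 at 27131634 to 27133684 on the plus strand, and all of its 1439 exon bases (100%) are also exon bases of EIF4A1 on the same strand or SOX15 on the other. EIF4A1 itself held 350 to 5458 counts per lamb. The 0 therefore cannot be read as absent CD68 RNA. For AIF1, 18% of 1078 exon bases are shared with NCR3 and LST1. The other 38 genes share no exon base with another gene of the table.

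Within a group, lambs differed more in a typical leukocyte gene than in a typical gene of the table. The within-group SD of log2 CPM had a median of 0.568 over the 38 tested leukocyte genes, against 0.420 over all tested genes. Without 8263 these medians were 0.532 and 0.408. Genes were not matched for level, so the part of low counts in this difference was not tested. By cell type the medians were 0.371 for pan-leukocyte and class II genes, 0.454 for macrophage genes, 0.626 for T cell genes (0.532 without 8263), 0.628 for neutrophil genes, 0.699 for B lineage genes and 0.708 for cytotoxic genes. ADGRE1 was the steadiest at 0.288. AIF1 at 1.05 and FCRL6 at 1.26 spread most. FCRL6 had 0 to 44 counts per lamb.

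Control female 8263 carried a distinct leukocyte profile. Its values were above the median of the other 7 control females for 32 of the 38 tested genes, by a median of 1.07 log2 units, against 49.2% of all tested genes and a median of -0.01. It held the highest value of all 30 lambs for 22 of the 38 (57.9%). All 10 T cell genes were above that median. CCR7 had 7.93 CPM in 8263, against 0.596 to 1.80 in the other 7 control females. CD8A had 33.4 CPM against 5.60 to 11.5, and CD8B had 15.0 against 1.28 to 3.67. These 3 genes lay far outside their group, and CD2 and IL7R were 4.21 and 4.24 times the median of the others. By contrast CD4 was 1.71 times and LCK 1.75 times that median.

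All 5 cytotoxic genes of 8263, all 4 pan-leukocyte and class II genes and all 3 tested neutrophil genes were likewise above that median, with CD74 at 826 CPM against 228.5 to 571.6 in the other control females. The macrophage genes split. C1QA had 590 CPM against 87.9 to 332.9, and C1QB, C1QC, MSR1, TLR4, AIF1 and TIMD4 were 2.52 to 2.72 times the median of the other control females. MARCO was 1.37 times that median, whereas CD14 (0.967), VSIG4 (0.927), ADGRE1 (0.873) and CSF1R (0.783) were below it. Control female 8322 exceeded 8263 for TIMD4 (105.5 against 99.5 CPM) and was close to it for TLR4 (5.34 against 5.89 CPM). The macrophage list mean was 6.25 log2 CPM in 8263, 6.02 in 8322 and 5.99 in control female 8378. B lineage genes lay on both sides: CD79A was 1.39 times, MS4A1 1.002 times, JCHAIN 0.895 times and CD79B 0.722 times the median of the others. The neutrophil genes differed from that median by 0.90 log2 units in the middle. S100A8, under the filter, was at 0.271 CPM, against a median of 0.032 and a range of 0 to 0.582 in the other control females. All 6 tested genes of a further neutrophil list were above the median of the other control females, by a median of 1.70.

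Interferon-stimulated genes were also high in 8263. All 26 tested genes of that list were above the median of the other control females, by a median of 3.80 log2 units, and the list mean was 8.41 log2 CPM in 8263, against 3.71 to 6.62 in the other 7. Hepatocyte markers differed by a median of -0.11 log2 units, endothelial markers by 0.03 and erythroid markers by 0.27. In bulk tissue a change in the number of cells of a type and a change in RNA per cell cannot be told apart. The part of the interferon-stimulated genes in the leukocyte values was not tested.

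**Figure D2:**
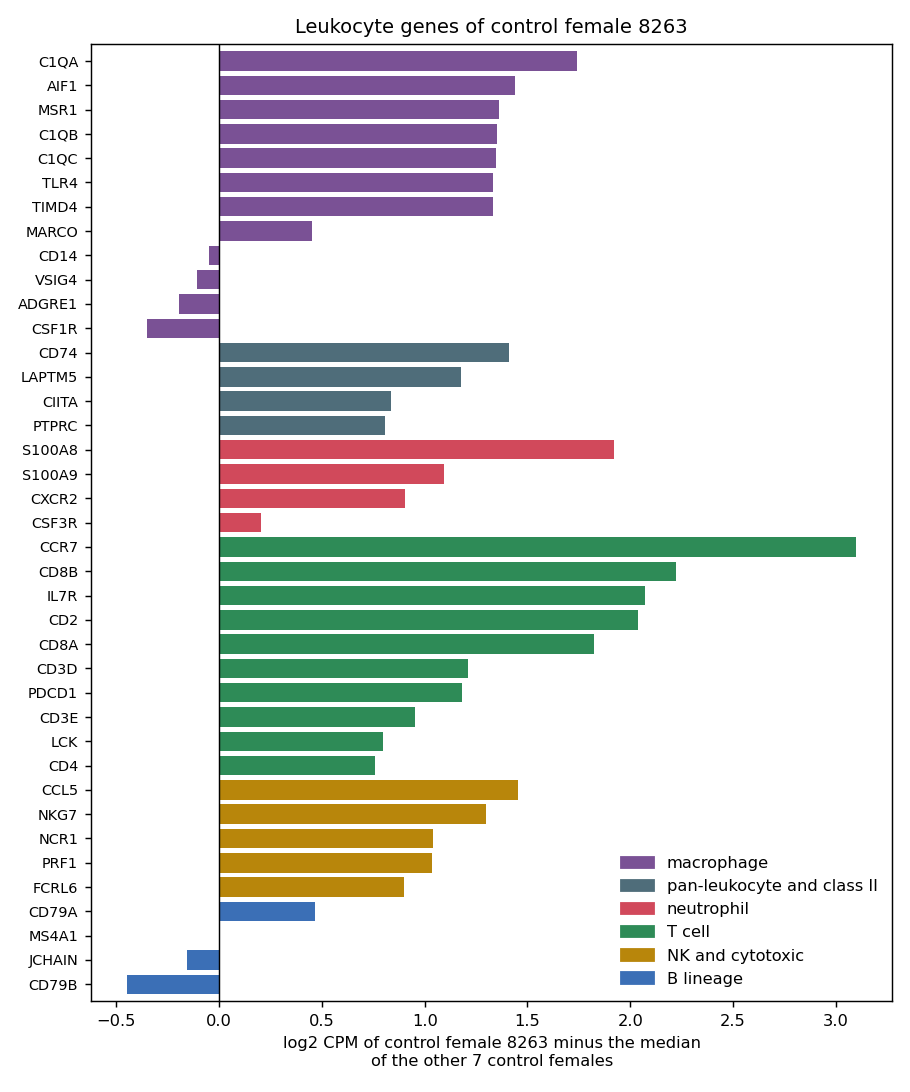
Leukocyte genes of control female 8263. Bars give log2 CPM of this lamb minus the median of the other 7 control females for 39 genes, coloured and grouped by cell type. Bars point right for T cell, cytotoxic, neutrophil and class II genes, with CCR7 the longest at 3.10, and lie on both sides of 0 for macrophage and B lineage genes.

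The exposure comparison was made within each sex. With edgeR's quasi-likelihood test and an adjusted p under 0.05, no leukocyte gene was called between biosolids and control lambs in females, in males or over both, and no gene of the whole table was (0% of 17840 in each). DESeq2 and limma voom also called 0 leukocyte genes in these comparisons. At an unadjusted p of 0.05 there were 3 of 38 in females, all lower, where 3.65% of all tested genes passed. In males there was 1 of 38, against 5.44% of all genes, and over both sexes 2 of 38, against 4.3%. Without biosolids male 8778 there was again 1 of 38 in males, against 3.2% of all genes in that fit.

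In females 10 leukocyte genes were higher and 28 lower in biosolids lambs, with a median log2 fold change of -0.22 (all genes -0.02). Without 8263 the counts were 15 higher and 22 lower of 37 tested, with a median of -0.04, and 1 gene passed an unadjusted p of 0.05, against 3.38% of all genes in that fit. The 12 macrophage genes had a median of -0.15 with 8263 and -0.03 without. For the 4 pan-leukocyte and class II genes the medians were -0.23 with and -0.06 without this lamb, for the 10 T cell genes -0.34 and -0.03, for the cytotoxic genes -0.55 (5 genes) and -0.28 (4 genes), and for the 4 B lineage genes -0.13 and -0.13. The 3 tested neutrophil genes were higher, with a median of 0.29 with 8263 and 0.45 without. Markers of other cell types also differed. Of the stellate cell and fibroblast genes 12 of 13 were higher in biosolids females (median 0.26, and 0.25 without 8263). Of the cholangiocyte genes 8 of 10 were higher (median 0.48 in both fits). The cholangiocyte list mean was highest in biosolids female 8649, at 4.43 log2 CPM. Its group median was 2.35 in biosolids females and 2.36 in control females. The part of both lists in the leukocyte values was not tested. No group of biosolids females lay wholly apart from the control females for any leukocyte gene, and 0% of all tested genes did so.

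FCRL6 had the smallest p of the leukocyte genes in both sexes. This gene (chromosome 1, 110815419 to 110835757, plus strand) was already among the genes of smallest p in an earlier look at these data, so its rank is no independent evidence. In biosolids females its CPM ran from 0 through a median of 0.0495 to 0.193, against 0 through 0.568 to 1.08 in control females. All 8 biosolids females lay below 6 of the 8 control females, and the other 2 control females were at 0 counts. On the log2 scale the fold change was -2.58 ± 0.76 (SE, adjusted p = 0.95). In biosolids males the values were 0, 0.0253 and 0.355 (lowest, median and highest), against 0, 0.242 and 0.503 in control males. The 0.355 CPM was that of biosolids male 8778, which had 2.34 M counts outside ribosomal RNA. The next highest biosolids male was at 0.158 CPM. In males the log2 fold change was -2.18 ± 0.92 (adjusted p = 0.816). Over both sexes it was -2.38 ± 0.60, the 8th smallest p of 17840 genes, and the adjusted p was 0.805. Counts were 0 to 8 in biosolids females and 0 to 44 in control females, so these values rest on few counts. Without 8263 the gene no longer passed the low-count filter, and control females then averaged 0.41 ± 0.34 CPM (SD, n = 7), against 0.078 ± 0.076 CPM in biosolids females (SD, n = 8).

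The T cell genes next in order rested on 8263. CD8A (chromosome 3, 58631415 to 58638744) had a lowest, median and highest of 3.98, 7.13 and 10.40 CPM in biosolids females, against 5.60, 9.54 and 33.4 in control females. Of the control females, 8263 and 1 other at 11.5 CPM exceeded every biosolids female, and the rest overlapped with them. Its log2 fold change was -0.70 ± 0.28 (adjusted p = 1), and -0.25 ± 0.21 (adjusted p = 1) without 8263. CCR7 ran through 0.994, 1.14 and 1.29 CPM in biosolids females, against 0.596, 1.10 and 7.93 in control females. Its log2 fold change of -0.80 ± 0.39 (adjusted p = 1) turned to 0.047 ± 0.25 (adjusted p = 1) when 8263 was left out. CD8B had -0.67 ± 0.37, and -0.02 ± 0.29 without 8263. The cytotoxic genes NKG7, PRF1 and CCL5 had -0.44 ± 0.23, -0.55 ± 0.30 and -0.59 ± 0.35, and without 8263 -0.22 ± 0.21, -0.35 ± 0.30 and -0.34 ± 0.34. CD74 had -0.34 ± 0.21, and -0.13 ± 0.19 without 8263. All these values had an adjusted p of 1.

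**Figure D3:**
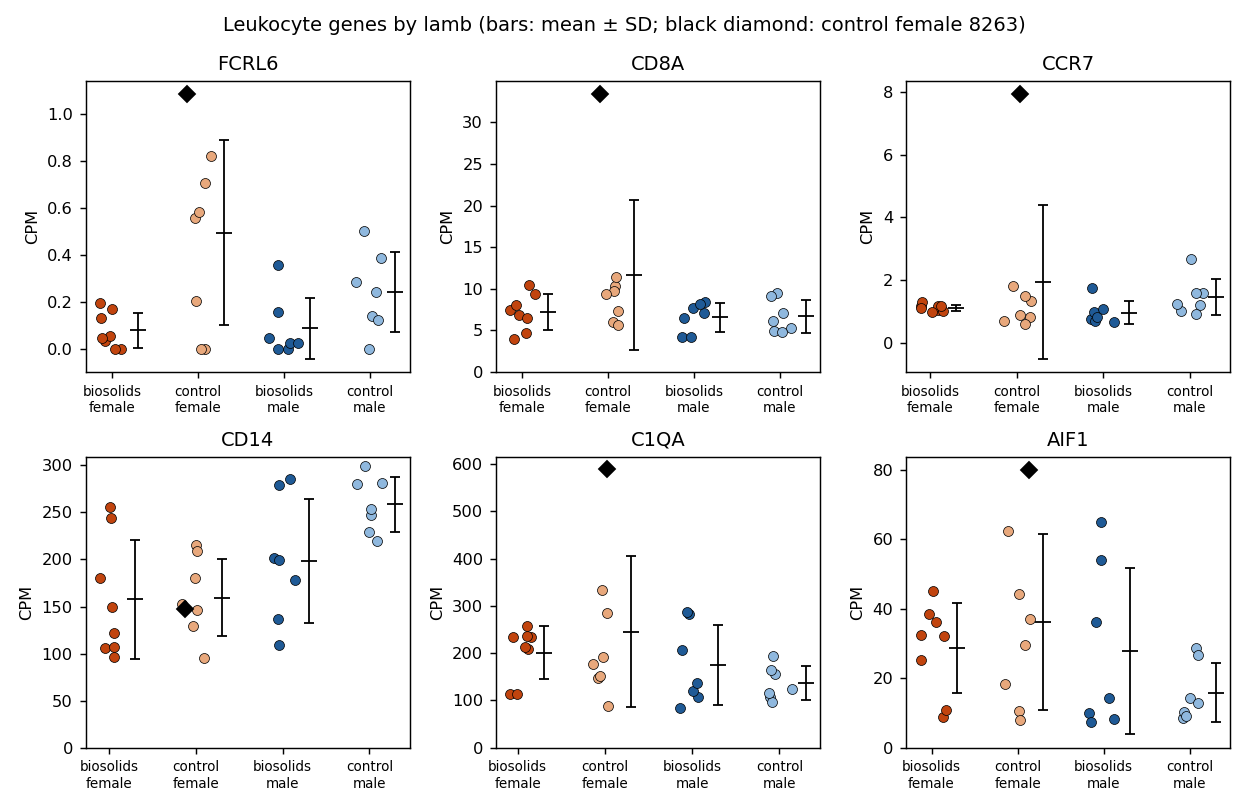
CPM of FCRL6, CD8A, CCR7, CD14, C1QA and AIF1 in each lamb. Points are lambs by group, the bar beside each group is the mean ± SD (n = 8 per female group and 7 per male group), and the black diamond is control female 8263. The diamond is the highest point for all genes shown but CD14, where control males, at 219 CPM and above, lie over every control female.

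Among males 11 leukocyte genes were higher and 27 lower in biosolids lambs, with a median log2 fold change of -0.06 (all genes 0.01). The sign of this median was not stable: it was 0.03 without control male 8408, 0.006 without control male 8428 and -0.18 without biosolids male 8764, and -0.16 (6 higher, 32 lower) with the mean of the ribosomal protein genes, described further on, as a term. Behind FCRL6 the order was TLR4 (-0.47 ± 0.24), CSF1R (-0.33 ± 0.17), CD14 (-0.38 ± 0.22), CXCR2 (-0.57 ± 0.35), JCHAIN (0.53 ± 0.36) and AIF1 (0.78 ± 0.53), each with an adjusted p of 0.816, and CSF3R (-0.43 ± 0.30, adjusted p = 0.821). TLR4 had 1.64, 2.13 and 2.68 CPM as lowest, median and highest in biosolids males, against 2.06, 2.96 and 3.60 in control males. All but 1 of the 7 control males exceeded every biosolids male, and that lamb, at 2.06 CPM, kept the groups overlapping. For AIF1 the biosolids males fell into 4 lambs at 7.32 to 14.3 CPM and 3 at 36.1 to 65.0, against 8.61 to 28.8 CPM in control males. The AIF1 value was 0.46 ± 0.53 without 8778 and -0.12 ± 0.23 with the ribosomal protein term. No leukocyte gene had male groups that did not overlap, where 0.0561% of all tested genes did.

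Over both sexes 10 genes were higher and 28 lower, with a median of -0.14. Without 8263 there were 13 higher and 24 lower, with a median of -0.05. With the ribosomal protein term there were 6 higher and 32 lower, with a median of -0.22. In that fit 5 of 38 passed an unadjusted p of 0.05, against 4.74% of all genes. With limma voom the median was -0.08 and 5 of 38 passed, against 6.26%. In females alone the ribosomal protein term gave a median of -0.25 and 5 of 38, against 5.23%. There limma voom gave -0.07 and 2 of 38, against 3.3%. In the main fit over both sexes CCR7 had -0.71 ± 0.29, CD8A -0.37 ± 0.21, TLR4 -0.28 ± 0.16, CD3E -0.31 ± 0.18, CSF1R -0.20 ± 0.12, CCL5 -0.42 ± 0.26 and PRF1 -0.36 ± 0.23, each at an adjusted p of 0.943. Without 8263 CCR7 had -0.28 ± 0.18 and CD8A -0.14 ± 0.15. Whether the exposure difference itself differed between males and females was tested as an interaction (male minus female). It called 0 of 38 genes, and 0 passed an unadjusted p of 0.05, against 0% and 3.63% of all tested genes. DESeq2 and limma voom called 0 leukocyte genes here too. With 8263 there were 28 positive and 10 negative differences with a median of 0.18, and without it 19 and 18 with a median of 0.01. The smallest p belonged to the neutrophil receptors CSF3R (-0.72 ± 0.41) and CXCR2 (-0.84 ± 0.48), followed by JCHAIN (0.83 ± 0.49), CD8A (0.66 ± 0.41), AIF1 (1.11 ± 0.72), MSR1 (0.52 ± 0.34), C1QA (0.63 ± 0.44) and TLR4 (-0.39 ± 0.32), all at an adjusted p of 0.952. Without 8263 CD8A had 0.22 ± 0.31, C1QA 0.32 ± 0.39, MSR1 0.32 ± 0.31 and TLR4 -0.57 ± 0.29 (adjusted p = 0.985 for each). CXCR2 averaged 1.20 ± 0.52 CPM in biosolids females, against 0.99 ± 0.50 CPM in their controls (SD, n = 8 each). In males it averaged 0.76 ± 0.29 CPM in biosolids lambs and 1.14 ± 0.55 CPM in controls (SD, n = 7 each).

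**Figure D4:**
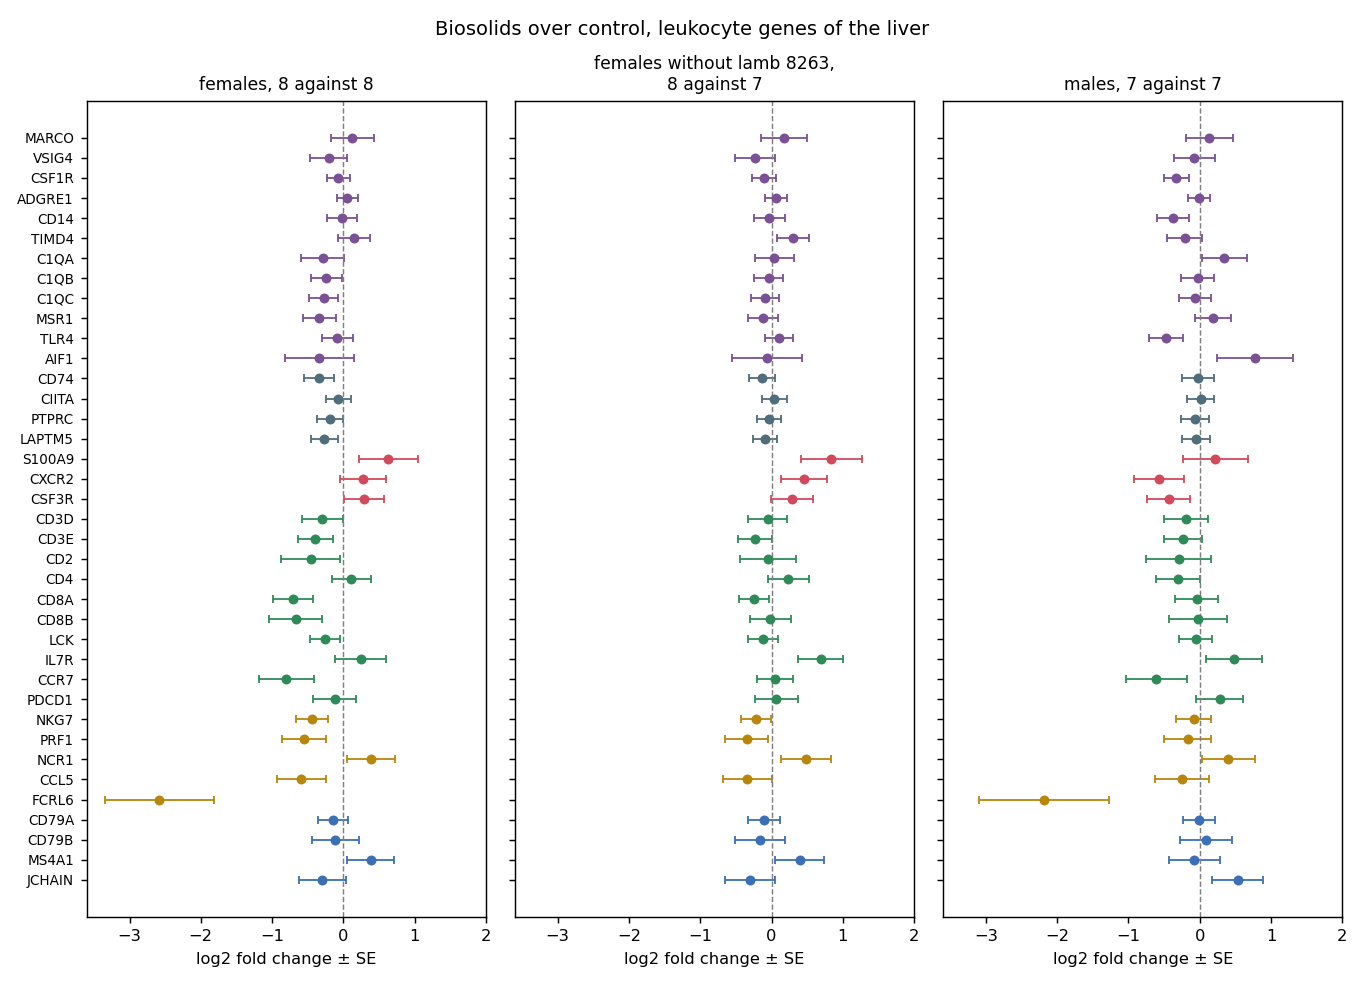
Log2 fold changes of biosolids over control lambs for 38 tested leukocyte genes. The panels show females, females without control female 8263 (37 genes, FCRL6 under the filter) and males, with points for the estimate, bars for ± 1 SE and colours for cell type. In females most points lie left of 0 (28 of 38), and without 8263 they gather around it (22 of 37).

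Sex was the second comparison. In controls 7 leukocyte genes were higher and 31 lower in males, with a median log2 fold change of -0.25 (all genes -0.04). None was called by edgeR, where 0.0841% of all tested genes were, and DESeq2 and limma voom called 0 of the 38 as well. The smallest adjusted p of the 38 was 0.198 with edgeR, 0.0924 with DESeq2 and 0.0546 with limma voom, the last close to the threshold. At an unadjusted p of 0.05 there were 6 of 38 (1 higher, 5 lower), against 18.9% of all genes. Without 8263 there were 12 higher and 25 lower of 37, with a median of -0.05, and 2 passed an unadjusted p of 0.05, against 13.9% of all genes in that fit. All 10 T cell and all 5 cytotoxic genes were lower in control males with 8263 included. Without it 7 of 10 T cell genes and 4 of 4 tested cytotoxic genes were lower, and CCR7 was at 0.42 ± 0.26 and CD8B at 0.096 ± 0.30.

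CD14 (chromosome 5, 49427460 to 49428940, minus strand) was the only tested gene of the list with control groups that did not overlap. Its lowest, median and highest CPM were 219, 253 and 299 in control males, against 95.2, 150.5 and 215 in control females, so every control male exceeded every control female. Among all tested genes 0.213% had control groups that did not overlap. The log2 fold change was 0.70 ± 0.22 (adjusted p = 0.198), and 0.67 ± 0.22 (adjusted p = 0.32) without 8263. In biosolids lambs CD14 averaged 198 ± 66 CPM in males (SD, n = 7) and 158 ± 63 CPM in females (SD, n = 8), with ranges that overlapped.

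The lower genes were CD8A (-0.80 ± 0.29, adjusted p = 0.216), C1QA (-0.84 ± 0.31, adjusted p = 0.218), JCHAIN (-0.86 ± 0.35, adjusted p = 0.224), AIF1 (-1.20 ± 0.51, adjusted p = 0.234) and MSR1 (-0.51 ± 0.24, adjusted p = 0.257). C1QA had 96.8, 125 and 195 CPM as lowest, median and highest in control males, against 87.9, 184.5 and 590 in control females. Without 8263 CD8A had -0.36 ± 0.22, C1QA -0.53 ± 0.28, JCHAIN -0.89 ± 0.37, AIF1 -0.94 ± 0.51 and MSR1 -0.31 ± 0.22. CSF1R (0.32 ± 0.17, adjusted p = 0.282) and CCL5 (-0.66 ± 0.36, adjusted p = 0.3) completed the 8 smallest p.

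In biosolids lambs 11 leukocyte genes were higher and 27 lower in males, with a median of -0.11. None was called by edgeR, DESeq2 or limma voom, where edgeR called 0.0953% of all tested genes. TLR4 (-0.49 ± 0.23, adjusted p = 0.969) alone passed an unadjusted p of 0.05, against 4.85% of all genes. It was followed by CXCR2 (-0.64 ± 0.35), TIMD4 (-0.44 ± 0.24), CD4 (-0.47 ± 0.30), CD14 (0.33 ± 0.22), MARCO (-0.43 ± 0.32), CD3D (-0.34 ± 0.30) and CSF3R (-0.32 ± 0.29). No leukocyte gene had biosolids males wholly apart from biosolids females, where 0.0673% of all tested genes did.

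Several macrophage genes and JCHAIN differed in level between lambs with low and lambs with high levels of the genes for cytosolic ribosomal proteins. The mean log2 CPM of 77 such genes fell into 2 clusters of lambs, 13 at 6.18 to 6.54 and 17 at 6.95 to 7.77. The gap of 0.412 between them was the widest, ahead of 0.136. The lower cluster held 2 of 8 biosolids females, 2 of 8 control females, 4 of 7 biosolids males and 5 of 7 control males. AIF1 had 7.32 to 14.3 CPM in the lower cluster and 18.5 to 79.96 CPM in the upper one, with no overlap. It was the 1 leukocyte gene of 38 to split in this way (2.63%, against 2.35% of all tested genes). JCHAIN had a median of 4.76 CPM (range 3.42 to 9.42) in the lower cluster and 12.1 CPM (6.93 to 18.9) in the upper. For C1QA the medians were 114 and 233 CPM, and for MSR1 10.1 and 14.2 CPM. CD14 ran the other way, with 247 CPM in the lower cluster (200 to 299) and 146 CPM in the upper (95.2 to 281).

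Within each cluster none of the 38 genes correlated with the ribosomal protein mean at an adjusted permutation p of 0.05, over 76 correlations. AIF1 had r = 0.66 and rho = 0.82 in the lower cluster (adjusted permutation p = 0.28 and 0.0669), and r = 0.60 without the 2 lambs farthest from the median. In the upper cluster it had r = 0.51 and rho = 0.51 (adjusted permutation p = 0.28 and 0.241), and r = 0.33 without the 2 farthest. The sign for JCHAIN differed between clusters. It had r = -0.56 and rho = -0.54 in the lower (adjusted permutation p = 0.28 and 0.261, r = -0.48 without 2). In the upper it had r = 0.49 and rho = 0.43 (0.28 and 0.321, r = 0.52 without 2). With the ribosomal protein mean as a term in the fit, the sex difference in controls was 0.41 ± 0.14 for CD14 (adjusted p = 0.816), -0.18 ± 0.23 for AIF1 (0.952), -0.33 ± 0.25 for C1QA (0.902), -0.38 ± 0.20 for JCHAIN (0.888) and -0.16 ± 0.19 for MSR1 (0.947). In that fit 14 of the 38 genes were higher and 24 lower in control males, with a median of -0.12. At an unadjusted p of 0.05 there were 3 of 38, against 5.53% of all genes. CSF3R moved to 0.81 ± 0.23 (adjusted p = 0.572).

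**Figure D5:**
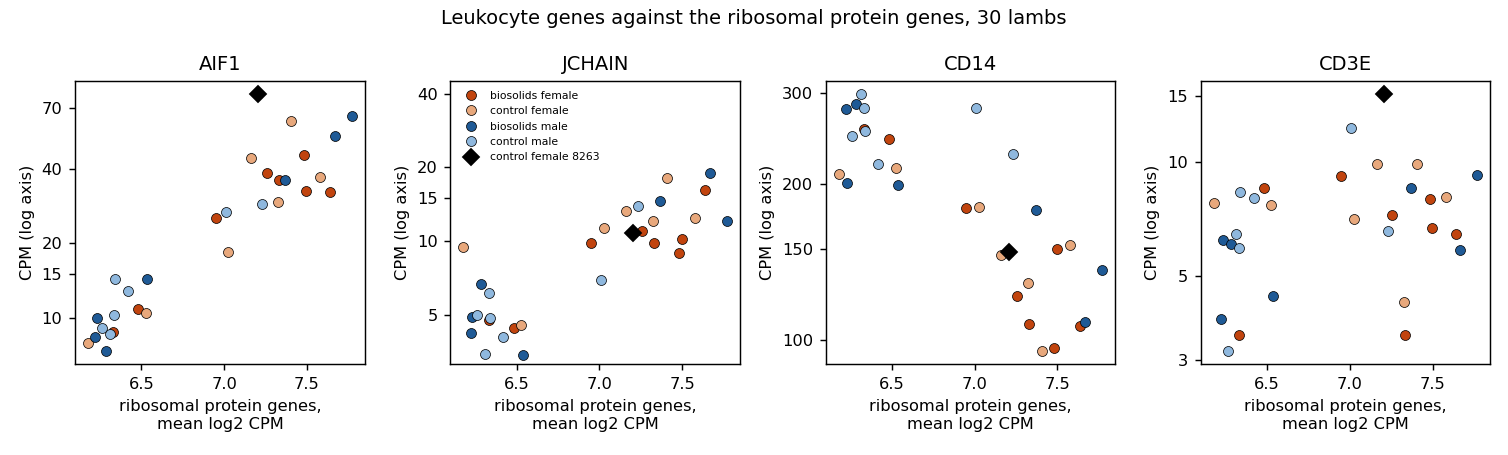
AIF1, JCHAIN, CD14 and CD3E in each lamb (CPM, log axis) against the mean log2 CPM of 77 ribosomal protein genes. Colours mark the groups and the black diamond control female 8263. The lambs form 2 clusters on the x axis, AIF1 lies at 7.32 to 14.3 CPM in the lower and 18.5 to 79.96 CPM in the upper, most CD14 values are lower in the upper cluster, and CD3E overlaps widely between them.

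Most of the chosen pairs of leukocyte genes varied together over the 30 lambs, both within and across the cell type lists. Pairs of genes from outside the lists were not tested for comparison. Of 29 pairs chosen, 8 involved CD163 and could not be computed, and 21 were tested by permutation with adjusted p-values over the 21. C1QB and C1QC had r = 0.97 and rho = 0.94 (adjusted permutation p = 2.62e-05 and 3e-05), and r = 0.95 without the 2 lambs farthest from the median. C1QA and C1QB had r = 0.88 and rho = 0.85 (adjusted permutation p = 2.62e-05 and 3e-05), and r = 0.82 without the 2 lambs farthest for that pair. The T cell receptor chains CD3D and CD3E had r = 0.84 and rho = 0.74, CD3E and CD8A 0.80 and 0.81, the cytotoxic genes NKG7 and PRF1 0.84 and 0.78, and CD3E and NKG7 0.83 and 0.75, each with adjusted permutation p of 2.62e-05 for r and 3e-05 for rho. Without the 2 farthest lambs r was 0.77, 0.78, 0.78 and 0.76 for these 4 pairs. PTPRC and CD3E had r = 0.80 and rho = 0.81 (adjusted permutation p = 2.62e-05 and 3e-05, r = 0.74 without 2), and CD74 and CIITA r = 0.76 and rho = 0.73 (2.62e-05 and 7.87e-05, r = 0.70 without 2). A p of 1e-05 before adjustment is the smallest these permutations can give.

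Other pairs were looser. CD79A and MS4A1 had r = 0.67 and rho = 0.69 (adjusted permutation p = 0.000163 and 0.000191, r = 0.66 without 2), while CD79A and JCHAIN had r = 0.32 and rho = 0.24 (0.0994 and 0.227, r = 0.15 without 2). CD3E and CD79A had r = 0.51 and rho = 0.57 (0.00622 and 0.00127, r = 0.47 without 2), and CD3E and CD4 had r = 0.40 and rho = 0.61 (0.0331 and 0.000856, r = 0.34 without 2). The calprotectin genes S100A8 and S100A9 had r = 0.58 and rho = 0.62 (0.00103 and 0.000735, r = 0.59 without 2), and S100A9 and CSF3R r = 0.49 and rho = 0.48 (0.00834 and 0.00942, r = 0.39 without 2). FCRL6 followed NKG7 at r = 0.47 and rho = 0.41 (0.0109 and 0.0294), and r fell to 0.27 without the 2 farthest lambs, 8378 and 8263, so the relation rested on them.

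MARCO, taken as the macrophage anchor since CD163 could not be used, split the macrophage genes. It had r = 0.63 and rho = 0.67 with C1QA (adjusted permutation p = 0.000477 and 0.000191, r = 0.61 without 2) and r = 0.63 and rho = 0.68 with PTPRC (0.000477 and 0.000191, r = 0.64 without 2). With CD3E it had r = 0.47 and rho = 0.59 (0.0122 and 0.00108, r = 0.50 without 2). With CD14 the sign was negative, at r = -0.46 and rho = -0.45 (0.0136 and 0.0165, r = -0.42 without 2), and r = -0.31 once each group was centred on its own mean. MARCO did not pass the test with VSIG4 (r = 0.02, rho = 0.01, adjusted permutation p = 0.931 and 0.949, r = 0.08 without 2) or S100A9 (r = 0.05, rho = -0.01, 0.851 and 0.949, r = 0.09 without 2). Like C1QA and CD14, MARCO differed in median between the ribosomal protein clusters, at 35.8 CPM in the lower and 57.3 CPM in the upper. The part of these clusters in the gene pairs was not tested.

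The 4 genes of the whole table most like each anchor were ranked by Spearman rho of log2 CPM over 30 lambs. For MARCO they were LOC101102057 (0.835), LOC114114483 (0.831), C1QC (0.815) and CYBB (0.815), the NADPH oxidase subunit of phagocytes. For CD3E they were LOC101110848 (0.915), LOC105613374 (0.850), LOC101105810 (0.820) and the T cell surface receptor CD6 (0.817). For NKG7 they included IL2RB (0.854), the shared receptor chain for IL-2 and IL-15, CTSW (0.837), a protease of cytotoxic cells, and LOC101118514 (0.819). For CD79A they were SH3BGRL3 (0.785), TBC1D10C (0.763), FES (0.751) and NFATC2 (0.747). S100A9, at few counts, had OSBPL10 (0.741), CLDN19 (0.707), XBP1 (0.693) and LOC114117884 (0.682). Without 8263 the first gene of each anchor was the same.

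Wider lists of leukocyte genes gave 0 called genes in each exposure and sex comparison by edgeR. In biosolids females most of these lists leaned lower, and the lean shrank or was lost without 8263. Of 21 tested chemokine, cytokine and adhesion genes, 2 were higher and 19 lower, and 5 passed an unadjusted p of 0.05, against 3.65% of all genes. Without 8263 there were 8 higher and 12 lower, and 1 passed. CXCL10 had -1.86 ± 0.76 with 8263 and 0.38 ± 0.48 without, and IL1B -0.66 ± 0.29 and -0.50 ± 0.29. All 14 further cytotoxic genes were lower, with a median of -0.29, against 12 of 14 and a median of -0.08 without 8263. They were led by SLAMF7 (-1.02 ± 0.49, and -0.06 ± 0.36 without 8263) and FASLG (-0.58 ± 0.33, and -0.20 ± 0.30). Of 21 further macrophage genes 18 were lower, and 11 without 8263. CD86 had -0.74 ± 0.27 with this lamb and -0.41 ± 0.23 without, and the Fc receptor FCGR1A -1.81 ± 0.71 and 0.38 ± 0.45. Of 23 further T cell genes 18 were lower, and 13 without 8263. HAVCR2 had -0.87 ± 0.40 with it and 0.0095 ± 0.26 without, whereas the costimulatory receptor CD28 had 0.76 ± 0.32 and 0.74 ± 0.34. All 10 dendritic cell genes were lower, with a median of -0.36, against 8 of 10 and a median of -0.17 without 8263. CLEC9A had -0.79 ± 0.38 with it and -0.17 ± 0.31 without, and XCR1 -0.52 ± 0.26 and -0.22 ± 0.22. Of 15 B lineage and plasma cell genes 6 were higher, and 8 without 8263. By contrast 7 of 8 mast cell, eosinophil and basophil genes were higher in both fits (median 0.25 with 8263 and 0.27 without). The genes named here had an adjusted p of 1.

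In males the wider lists did not lean one way. The chemokine list had 12 higher and 9 lower genes in biosolids males with a median of 0.05, the cytotoxic list 10 higher and 4 lower with a median of 0.09, the B lineage and plasma cell list 11 higher and 4 lower with a median of 0.07, and the mast cell, eosinophil and basophil list 7 higher and 1 lower with a median of 0.26. The trafficking receptors had 6 higher and 11 lower (median -0.09), the further macrophage genes 8 and 13 (median -0.14) and the further T cell genes 8 and 15 (median -0.13). CD28 had -0.80 ± 0.35 in males (adjusted p = 0.816), and the difference from females was -1.56 ± 0.48 (adjusted p = 0.952). Interferon-stimulated genes were lower in 26 of 26 in each sex, with medians of -1.43 in females and -0.55 in males, and none was called. Without 8263, 22 of 26 were lower in females, with a median of -0.27. Their list mean was 4.71 ± 0.66 log2 CPM in biosolids females (SD, n = 8), against 5.19 ± 1.63 in control females (SD, n = 8) and 4.73 ± 1.06 without 8263 (SD, n = 7). Between control males and control females the cytotoxic list was lower in 14 of 14 genes (median -0.56), and in 13 of 14 without 8263 (median -0.32). KLRK1 was at -1.24 ± 0.35 (adjusted p = 0.198), and the dendritic cell receptor CLEC9A at -1.66 ± 0.41 (adjusted p = 0.174), against -0.99 ± 0.34 and -1.06 ± 0.33 without 8263 (adjusted p = 0.32 for both). In the same comparison 25 of 26 interferon-stimulated genes were lower (median -1.02), and 16 of 26 without 8263 (median -0.11). Their list mean was 4.83 ± 0.80 in control males (SD, n = 7), between the means of control females with and without that lamb. In control males 10 of 14 hepatocyte genes (median 0.34) and 12 of 13 stellate cell and fibroblast genes (median 0.46) were higher, and the part of these lists in the leukocyte values was not tested.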

How the data were processed

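RNA-seq of liver from 30 lambs was analysed. Frozen tissue went through column RNA isolation and TruSeq library preparation, per the labels' protocols. The submitters' processing notes name featureCounts 1.5.0-p3 and STAR, beside Trimmomatic, MultiQC and FastQC. Their settings, strand use included, are not given in the sources used here. The deposited values are whole-number counts per gene, not normalized. Of the table's columns, 0 were left without a lamb. Pieces of 7 genes broken over 25 lines were joined. Start and end were identical to RefSeq ARS-UI_Ramb_v3.0 for all 28862 genes matched by symbol. No reference sequence was used.

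Counts were fitted in R 4.3.3 with edgeR 4.0.16 (filterByExpr by the 4 groups, 17840 genes kept, TMM scaling, a mean per group, robust quasi-likelihood, 26 residual degrees of freedom, biological coefficient of variation 35.2%). Calls needed an adjusted p (Benjamini-Hochberg, over all tested genes) under 0.05. CPM values use TMM-scaled library sizes, and log2 CPM a prior count of 2. Each standard error is the fold change divided by the square root of F. Correlations used 100000 two-sided permutations with scipy 1.17.1. Alternatives were RLE scaling, DESeq2 1.42.0, limma 3.58.1 voom with sample weights, other filters, rRNA rows taken out, only the 2 groups compared, an adjusted p of 0.1 and each lamb left out. Chosen after seeing the data were the fit without both 8263 and 8778, the ribosomal protein term, the wider lists without 8263, MARCO as an anchor and 7 pairs. The fit was checked on simulated data.

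The genes and lists were chosen with earlier results of these data known. Every gene with a row is named, with a fold change for the 8 smallest p in each comparison (others where a result turns on them), 2 genes of each wider list described, and 4 genes per anchor, of which 1 is not reported here. Lambs were taken as independent. Dams and litters are not labelled: with shared dams, p-values would be too low. Exposure cannot be told apart from an unlabelled processing day.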

Additional observations from a re-analysis of the deposited data

Results flagged for a closer look

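Each gene was checked for a lamb far from its group, by Dixon's test on log2 CPM with critical values of 0.526 for 8 lambs and 0.568 for 7. Of 156 gene-and-group combinations 9 were flagged (5.77%), where chance flags about 1 in 20. Control female 8263 accounted for 3 of them, all the highest of the 8 control females: CD8A at 33.43 CPM, CD8B at 14.98 CPM and CCR7 at 7.932 CPM. Biosolids male 8778, with 87.5% ribosomal RNA counts and 2.34 M other counts, accounted for 2. Of the 7 biosolids males it was the highest for S100A8, at 1.065 CPM, and the lowest for CD4, at 0.355 CPM. At that depth both values rest on few reads. Biosolids male 8735 was the highest of its group for CXCR2, at 1.419 CPM.

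Among females, biosolids lamb 8714 was the lowest of its group for CD8B, at 1.036 CPM. Biosolids female 8731 was the lowest for CD79B, at 0.4125 CPM. Control female 8353 was the lowest for MS4A1, at 0.1555 CPM.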

How the results depend on the processing

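In all 6 comparisons 0 leukocyte genes were called under every alternative that was run, the added fits included. Of the 48 log2 fold changes of the 8 smallest p per comparison, 2 changed sign. For CCR7 in females the main value was -0.80. It ran from -0.94 (without control female 8353) to 0.047 (without control female 8263) when each lamb was left out, and was 0.050 without both 8263 and biosolids male 8778. For AIF1 in males the main value was 0.78, and it became -0.12 with the ribosomal protein mean as a term. The causes were not tested. The 18 pairs that passed the correlation test kept their sign without 2 lambs, without 8263 and with each group centred, settings in which the p was not recomputed. Over all tested genes, 15 were called for sex in controls, against 53 with DESeq2, 57 with limma voom and 3 with at least 1 CPM in 15 libraries. For sex in biosolids lambs 17 were called, against 7 with that stricter filter and 10 from only the 2 groups compared. DESeq2 called 4 genes for exposure in males, 4 over both sexes and 1 for the interaction, where edgeR called 0 (970, 768 and 648 at an unadjusted p under 0.05). No paired analysis was possible because the groups share no replicate numbers. Depth limits FCRL6, S100A8, S100A9 and the data of biosolids male 8778, whose 2.34 M counts outside ribosomal RNA give few reads for rare transcripts.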
